A study of Mus musculus with 24 samples.

Results

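The 8 genes described here belong to the placenta and its trophoblast precursors and were followed through 24 RNA-seq libraries of mouse naive embryonic stem cells (ESCs). They are the 8 rows, of 55385 Ensembl genes in each table, whose identifiers map to Itm2a, St14, Cdh3, Stox1, Cldn4, Enpep, Vgll1 and Slc40a1. Itm2a, St14, Cdh3, Stox1 and Cldn4 were chosen from the comparison of sorted ESCs with low and high mitochondrial membrane potential, so their values there are a description with no test. Which comparison singled out Enpep, Vgll1 and Slc40a1 is not given in the sources used here, and these 3 genes therefore carry values and folds but no p-value in any comparison. The label fits 6 of the 8 products, which are membrane proteins. Stox1 and Vgll1 encode nuclear regulators that the same label gathers with them.

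The trophoblast is the outer epithelium of the blastocyst, the tissue that attaches the embryo and builds the placenta. Its cells are joined by cadherins and sealed by tight junctions, carry proteases on their surface, and later move iron and other nutrients from mother to fetus. Naive ESCs come from the inner cell mass, which does not normally form trophoblast. Polycomb repressive complex 2 (PRC2), of which Eed is a core subunit, places the repressive mark H3K27me3 on many lineage genes in ESCs.

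The study asked how quiescent naive ESCs, which have a low membrane potential, differ from cycling ones, and altered the metabolic and chromatin steps thought to link both states. Cells were grown in 2i/LIF, and each of 12 groups had 2 libraries described as biological replicates, although nothing in the labels says that they came from separate cultures. P-values therefore measure only the spread between these libraries. The groups were ESCs sorted by the dye TMRM for high ΔΨm or low ΔΨm, low ΔΨm cells given S-adenosylmethionine (SAM) at 25 or 50 µM, and cells with a non-targeting siRNA pool (siCtr) or one against Mat2a (siMat2a), which encodes the enzyme that makes SAM. The remaining groups were water (H2O) or etomoxir (ETO), an inhibitor of fatty acid oxidation, DMSO or a small-molecule MYC inhibitor (MYCi), and Eed heterozygous (Het) or Eed-null (EedKO) ESCs. The Eed lines were derived from blastocysts of mice that carried a floxed exon of Eed and Protamine-Cre, and were expanded on mouse embryonic fibroblast feeders in medium with serum, so they differ from the other cells in background, feeders and medium. How many independent lines stand behind the Het and EedKO libraries is not given in the labels.

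Values are FPKM (fragments on a gene, divided by its length in kilobases and by the library's size), and each of the 6 tables was normalized separately. Levels are therefore tested only within a table, and levels set side by side across tables are descriptions. From the size of the smallest steps in the values, 30.9 to 64.2 M fragments lay on genes in the 20 libraries outside the sorted cells. In the 4 sorted libraries 54.3 to 80.7 M steps lay on genes, but whether a step there is a fragment or part of one was not settled, so no fragment counts are given for them. The divisor behind the FPKM values was 63.7 to 87.9 M in the 6 siMat2a, ETO and MYCi libraries and 35.2 to 48.3 M in their 6 controls, although the fragments on genes spanned 30.9 to 39.7 M and 35.01 to 43.0 M. The median gene fell by 0.63 in siMat2a, 0.66 in ETO and 0.65 in MYCi on the log2 scale as deposited. Rescaling by the median of ratios, which sets the typical gene to no change, moved the median fold up by 0.66, 0.70 and 0.68 in these 3 comparisons and by 0.40 between the SAM doses, and down by 0.10 in EedKO and 0.04 in the sorted cells. For the 8 genes both scales are given wherever they differ in direction or call. Counts over gene lists are as deposited unless rescaling is named, and some are given on 1 scale only.

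The targeted genes followed the labels. Mat2a had FPKM of 48.5 and 45.1 in siCtr and of 13.5 and 9.44 in siMat2a (adjusted p = 3.62e-05, limma). Eed had 11.4 and 11.6 in Het and 2.72 and 2.78 in EedKO (adjusted p = 0.000995, limma). All 6 pluripotency genes examined (Pou5f1, Nanog, Sox2, Zfp42, Esrrb and Klf4) were at 24.4 FPKM or more in all 24 libraries. On both scales all 6 were lower in ETO and in MYCi and 3 were lower in siMat2a. Of all genes, 51.3%, 57.8% and 36.8% were lower in these 3 comparisons as deposited, and 31.2%, 28.4% and 19.8% after rescaling. In ETO the sum of the 6 genes, as deposited, went from between 730.3 and 1028 to between 256.1 and 272.8 FPKM. In EedKO 1 of the 6 was higher and 3 lower as deposited (beside 24.2% and 12.1% of all genes). After rescaling 1 was higher and 4 lower (beside 25.3% and 22.5%). Of 9 genes that define differentiated trophoblast, 8 stayed under 1 FPKM in every library, and their sum reached 0.245 FPKM at most outside the Eed lines.

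Across the 24 libraries Cldn4, St14 and Itm2a were the most abundant of the 8 genes, with medians of 38.1, 9.0 and 4.77 FPKM. None of these 3 was below 1 FPKM in any library. Cdh3 had a median of 1.58 FPKM and Stox1 of 0.300 FPKM. Slc40a1 reached 1 FPKM in 4 libraries, and Enpep and Vgll1 in only the 2 EedKO libraries. Enpep was at 0 in 9 libraries and Vgll1 in 3.

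In order of the group means across tables, a description only, high ΔΨm cells were lowest for 7 of the 8 genes, all but Enpep. These include Itm2a, St14, Cdh3, Stox1 and Cldn4, which were chosen from the sorted cells. The share of all genes that were lowest there was not counted, so nothing follows from this number. For Itm2a, Cdh3 and Stox1 both high ΔΨm libraries lay below every library of the next group, whereas for St14, Cldn4, Vgll1 and Slc40a1 they overlapped it. At the other end Cldn4 and Slc40a1 were highest in ETO and then in EedKO, with no overlap between these groups. Enpep, Vgll1 and Stox1 were highest in EedKO, apart from every other group. Itm2a was highest in siMat2a, above siCtr, and Cdh3 in Het and EedKO, which overlapped. The 3 groups highest in St14 (ETO, siMat2a and EedKO) overlapped as neighbours, and so did the 10 groups lowest in Enpep.

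**Figure D1:**
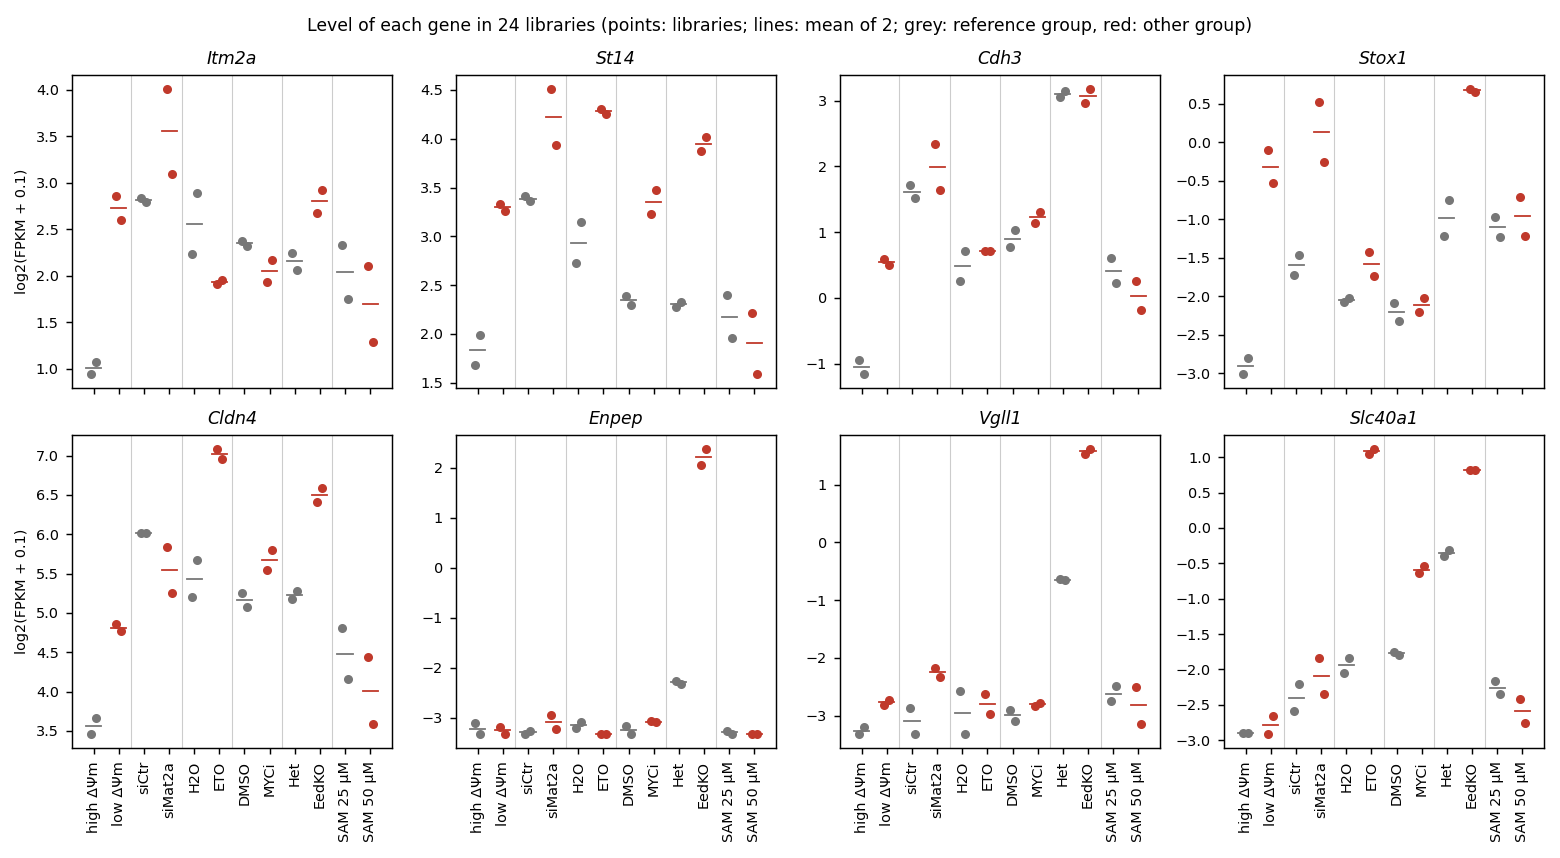
Level of the 8 genes in each of the 24 libraries, as log2(FPKM + 0.1) on the vertical axis, for 12 groups in 6 separately normalized tables divided by thin lines. Points are libraries, short lines are means of 2, grey marks the reference group of a table and red the other group; Enpep and Vgll1 stand out in EedKO only, whereas Slc40a1 is high in both ETO and EedKO.

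For 5 of the 8 genes the RefSeq table holds the promoter, 250 bases before to 50 bases after the start (GRCm38.p6); St14, Cdh3 and Slc40a1 have no entry there. Of the 5 promoters 4 are shown, each as the 250 bases before the start, because the genes contrast in where they were expressed: Enpep and Vgll1 were near 0 outside the Eed lines, Stox1 was low in all control cells, and Itm2a was present in every library. They are written 5′ to 3′ along the gene, and capitals mark a match to one of 4 motifs searched on both strands.
Enpep, chr3:129332750-129332999, minus strand: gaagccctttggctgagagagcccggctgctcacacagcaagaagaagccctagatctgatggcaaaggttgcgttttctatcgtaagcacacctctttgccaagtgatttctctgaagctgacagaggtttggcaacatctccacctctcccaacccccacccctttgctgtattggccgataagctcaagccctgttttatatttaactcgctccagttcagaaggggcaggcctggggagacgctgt
Vgll1, chrX:57087856-57088105, plus strand: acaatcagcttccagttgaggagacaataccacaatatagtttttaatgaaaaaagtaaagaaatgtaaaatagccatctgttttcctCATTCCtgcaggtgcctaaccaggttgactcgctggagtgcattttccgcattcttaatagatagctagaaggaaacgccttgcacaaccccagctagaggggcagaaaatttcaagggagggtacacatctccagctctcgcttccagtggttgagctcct
Stox1, chr10:62726095-62726344, minus strand: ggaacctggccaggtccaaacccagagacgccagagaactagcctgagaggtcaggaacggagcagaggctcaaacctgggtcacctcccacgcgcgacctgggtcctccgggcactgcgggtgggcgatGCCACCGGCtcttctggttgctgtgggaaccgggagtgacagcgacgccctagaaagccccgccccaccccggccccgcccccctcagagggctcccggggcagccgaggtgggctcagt
Itm2a, chrX:107403361-107403610, minus strand: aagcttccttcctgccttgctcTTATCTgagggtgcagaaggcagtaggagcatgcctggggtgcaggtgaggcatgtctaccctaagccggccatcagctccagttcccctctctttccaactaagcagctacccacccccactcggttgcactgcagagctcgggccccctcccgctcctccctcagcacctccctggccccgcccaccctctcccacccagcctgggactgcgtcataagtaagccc
The motifs were GGAATG for TEAD factors, GCCNNNGGC for TFAP2 factors, AGATAA for GATA factors and AACCNGTT for Grainyhead-like factors. None of the 4 motifs overlapped another in these promoters. The Vgll1 promoter held 1 TEAD match at positions −162 to −157 from the start, on the minus strand, and 14.7% of 32841 promoters held at least 1. The Stox1 promoter held 1 TFAP2 match (16.6% of all promoters) and the Itm2a promoter 1 GATA match (11.2% of all promoters). The Enpep and Cldn4 promoters held none of the 4 motifs, and no promoter of the 5 held the Grainyhead-like site, which 2.09% of all promoters contain. In CG content the Stox1 promoter was the richest, with 25 CG in its 300 bases, more than 81.6% of promoters. Cldn4 had 9, Itm2a and Enpep 7 each and Vgll1 4, where the median promoter had 7. The matches are letters in a window and say nothing of binding.

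Cdh3 encodes P-cadherin, the placental cadherin that joins epithelial cells (ENSMUSG00000061048, GRCm38 chromosome 8, 106510891 to 106557297, plus strand). Its FPKM was 0.422 and 0.35 in high ΔΨm cells and 1.4 and 1.31 in low ΔΨm cells, 3.52-fold apart with no overlap. In siMat2a it was 4.97 and 3.02 against 3.18 and 2.77 in siCtr, groups that overlapped. ETO gave 1.55 and 1.54 against 1.10 and 1.53 in H2O. MYCi gave 2.11 and 2.38 against 1.60 and 1.95 in DMSO. These 3 differences did not pass the test on the deposited scale (adjusted p of 0.397, 0.482 and 0.114 with limma). After rescaling, Cdh3 was higher in all 3, by 1.10 ± 0.12, 0.97 ± 0.10 and 1.06 ± 0.13 (log2, SE), with adjusted p of 0.00368, 0.00196 and 0.00415. The Eed lines had the highest Cdh3 levels of all groups, 8.18 and 8.71 in Het and 7.70 and 8.97 in EedKO, and the difference between them did not pass the test on either scale (as deposited, log2 fold change −0.02 ± 0.12, adjusted p = 0.898). Those lines also grew on feeders. The summed level of 10 fibroblast genes was 8.04 to 9.31 FPKM in Het and 7.92 to 9.16 in EedKO, and at most 3.15 FPKM in the other tables. Of the 6 that were tested 4 rose and 2 fell in EedKO, beside 24.2% and 12.1% of all genes. Of these calls 2 were of genes that passed the filter only through the group where they were high. The collagen gene Col1a1 went from 5.69 and 6.80 to 0.650 and 0.681 FPKM, and Pdgfrb from 0.680 and 0.594 to 3.89 and 4.36, while Dcn was at 0.0374 FPKM or less in all 4 libraries. The part of feeder RNA in the Cdh3 level was not tested.

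Cldn4 encodes claudin-4, a strand protein of tight junctions (ENSMUSG00000047501, chromosome 5, 134945119 to 134946934, minus strand). In the sorted cells its FPKM was 10.9 and 12.6 with high ΔΨm and 28.8 and 27.1 with low ΔΨm, a 2.38-fold difference. The highest levels of the study were in ETO, 135.3 and 123.7 against 36.7 and 50.8 in H2O, a rise of 1.58 ± 0.34 (log2, SE; adjusted p = 1.29e-05, limma). EedKO was at 85.1 and 96.1 against 36.1 and 38.8 in Het, a rise of 1.27 ± 0.11 (adjusted p = 0.00262). MYCi gave 46.6 and 55.6 against 38.1 and 33.5 in DMSO, a rise of 0.51 ± 0.18 (adjusted p = 0.0255). The groups were apart in each of these 3 tables, and rescaling enlarged the ETO and MYCi rises to 2.37 ± 0.08 and 1.28 ± 0.06. siMat2a was the exception, with 57.0 and 38.0 against 64.5 and 64.7 in siCtr. The log2 difference was −0.47 ± 0.46 as deposited (adjusted p = 0.379) and 0.28 ± 0.08 after rescaling (adjusted p = 0.0393), so its direction depended on the scale.

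Other junction genes were less uniform. Of 13 further tight junction genes, 12 were tested in EedKO, where 8 rose and none fell as deposited (beside 24.2% of all genes higher and 12.1% lower) and 9 rose and 1 fell after rescaling (beside 25.3% and 22.5%), led by Cldn3 (log2 fold change 3.07, adjusted p = 0.00373, limma), Cldn23 (2.38) and Cldn7 (2.31). The list's median there was 0.89 as deposited, where the median of all genes was 0.11. In ETO 4 rose and 1 fell of 12 (beside 13.9% and 51.3% of all genes), Cldn7 from 0.361 and 0.642 to 2.34 and 2.38 FPKM (log2 2.07) and Cldn6 by 1.32, and after rescaling 9 rose and none fell (beside 30.9% and 31.2%). In siMat2a the balance of the list turned with the scale. As deposited none of 11 rose and 4 fell, near the 36.8% of all genes that fell, and after rescaling 4 rose and 2 fell, beside 23% and 19.8%. Cldn3, lower by 2.37 as deposited, and Tjp3, lower by 1.41, were called lower on both scales. MYCi had 1 higher and 6 lower of 11 as deposited, beside 7.89% and 57.8% of all genes, and 5 higher and 2 lower after rescaling, beside 25.4% and 28.4%. In the sorted cells 4 of 11 were higher in low ΔΨm and none lower (beside 14% and 6.45% of all genes), and 6 and none after rescaling (beside 19.4% and 17%), Cldn6 by 1.52 and F11r, which encodes the junction adhesion molecule JAM-A, by 1.06. Cldn23 in EedKO and Cldn6 in the sorted cells passed the filter only through the group where they were high, so these folds are a description. Of the ETO calls 1 was of the same kind. A list of 10 other cadherin, catenin and adhesion genes was also examined. In ETO none of 8 tested rose and 7 fell as deposited (beside 13.9% and 51.3% of all genes). After rescaling 1 rose and 5 fell (beside 30.9% and 31.2%). In MYCi none of 8 rose and 7 fell (beside 7.89% and 57.8%), and 0 and 3 after rescaling (beside 25.4% and 28.4%). In EedKO 4 of 9 rose and 1 fell (beside 24.2% and 12.1%), and 3 and 2 after rescaling (beside 25.3% and 22.5%). Nectin2 fell in siMat2a, ETO and MYCi, by 1.65, 2.07 and 2.04 (log2). Cdh1, which encodes E-cadherin, fell by 1.13 in ETO, where the median gene fell by 0.66. In EedKO Cdh5, the endothelial cadherin gene, rose from 0.02 and 0.0160 to 0.927 and 0.908 FPKM, also passing the filter only through EedKO, and Cdh2 fell by 1.42.

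St14 encodes matriptase, a membrane serine protease of epithelia (ENSMUSG00000031995, chromosome 9, 31089402 to 31131853, minus strand). High ΔΨm cells had 3.10 and 3.88 FPKM and low ΔΨm cells 9.95 and 9.5, a 2.79-fold difference. EedKO was at 14.6 and 16.1 against 4.75 and 4.92 in Het, a rise of 1.64 ± 0.10 (log2, SE; adjusted p = 0.00138, limma). ETO was at 19.6 and 19.0 against 6.53 and 8.73 in H2O, a rise of 1.34 ± 0.29 (adjusted p = 1.95e-05). MYCi was at 9.27 and 11 against 5.14 and 4.83 in DMSO, a rise of 1.0 ± 0.15 (adjusted p = 0.000283). In siMat2a the 22.7 and 15.2 lay above the 10.5 and 10.2 of siCtr, 0.84 ± 0.42 as deposited (adjusted p = 0.0798) and 1.59 ± 0.07 after rescaling (adjusted p = 0.000950). In all 4 of these tables every library of the altered group lay above both controls.

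Matriptase acts with the serine protease prostasin (Prss8), is held in check by the inhibitors HAI-1 and HAI-2 (Spint1 and Spint2), and cleaves substrates that include EpCAM and the receptor PAR2 (F2rl1). Of 8 such genes, 7 were tested in EedKO, where 5 rose and 1 fell on both scales, beside 24.2% and 12.1% of all genes as deposited. Scnn1a, a subunit gene of the epithelial sodium channel, rose from 0.112 and 0.132 to 3.92 and 4.33 FPKM (log2 4.25, adjusted p = 0.000956, limma) and Met by 1.91. The list's median was 1.08 as deposited, where the median of all genes was 0.11. In ETO 3 of 7 rose and 1 fell (beside 13.9% and 51.3%), and 6 and 1 after rescaling (beside 30.9% and 31.2%), with Scnn1a up by 2.38 and Prss8 from 2.60 and 4.18 to 8.58 and 9.32 FPKM (1.41). In MYCi 2 rose (Scnn1a by 1.09 and Prss8 by 1.01) and 4 fell of 7, beside 7.89% of all genes higher and about the 57.8% that fell. After rescaling 2 rose and 1 fell, beside 25.4% and 28.4%. Spint1, from 25.9 and 22.7 to 10.8 and 12.6 FPKM, was the one lower on both scales. In ETO and MYCi Scnn1a passed the filter only through the treated group, so its rises there are a description. In siMat2a none of 7 rose and 2 fell as deposited, F2rl1 by 1.52 and Prss8 by 0.99, beside 36.8% of all genes lower. After rescaling 2 rose and 1 fell there, beside 23% and 19.8% of all genes, F2rl1 alone being lower on both scales. In low ΔΨm cells 3 of 6 were higher, beside 14% of all genes, Spint2 by 1.02, Met by 0.96 and Epcam by 0.72.

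**Figure D2:**
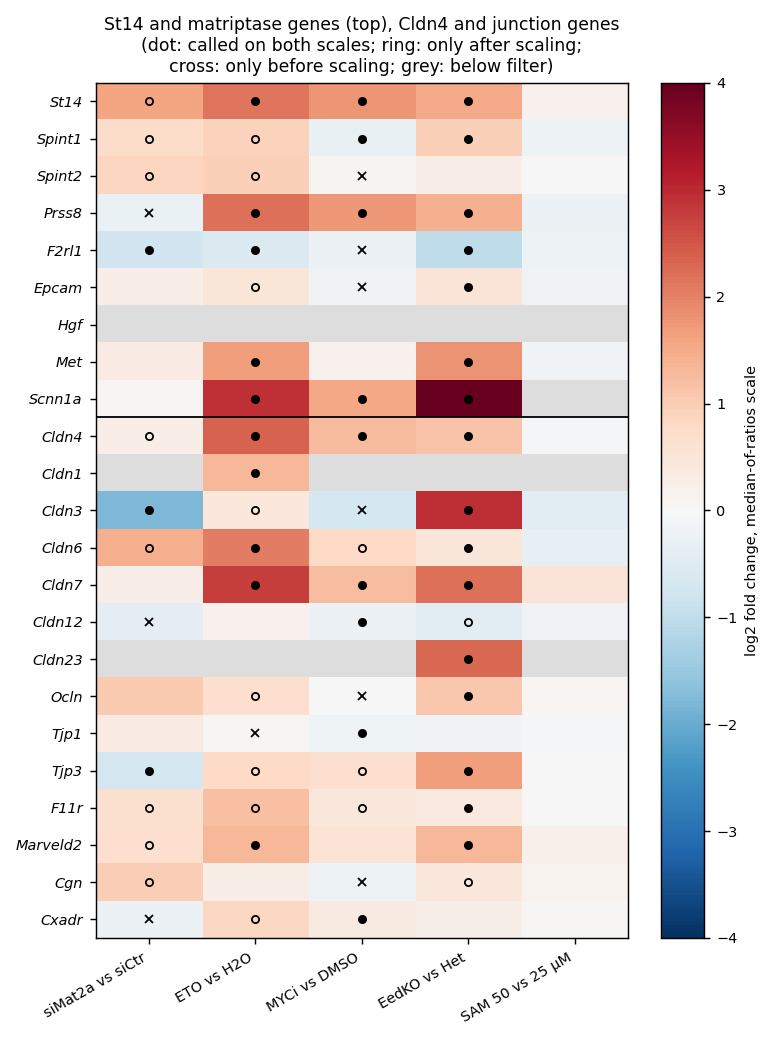
Log2 fold change after median-of-ratios scaling (colour) of St14 and 8 matriptase-related genes above the line and of Cldn4 and 13 tight junction genes below it, in 5 comparisons. A dot marks a call on both scales and a ring one made only after scaling. A cross marks one made only before scaling, and grey a gene below the filter. Prss8 is called higher in ETO, MYCi and EedKO on both scales, and so is Scnn1a. In ETO and MYCi, however, Scnn1a passed the filter only through the treated group, so its rise there is a description. Cxadr in MYCi is lower before and higher after scaling, and no gene is called between the SAM doses.

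Enpep encodes glutamyl aminopeptidase, an ectoenzyme that trims angiotensin II (ENSMUSG00000028024, chromosome 3, 129269175 to 129332720, minus strand). In EedKO its FPKM was 4.02 and 5.06, from about 1229 and 2148.5 fragments, against 0.109 and 0.10 in Het, from about 30.5 and 28 fragments. The ratio of the means was 43.5. In the other 5 tables it never passed the filter, with at most 0.0300 FPKM, in 1 siMat2a library. ETO libraries were at 0, where 3 fragments would correspond to 0.00957 and 0.00855 FPKM, so lower expression there was not detectable at this depth. Among 11 other membrane peptidase and angiotensin system genes, 4 of 8 tested rose in EedKO and none fell as deposited, and 3 rose and 1 fell after rescaling, beside 24.2% and 12.1%, then 25.3% and 22.5%, of all genes. Ace rose by 1.51 and Anpep by 1.07 (log2; adjusted p of 0.00392 and 0.00321 with limma), and Agtr1a, which passed the filter only through EedKO, was 1.79 higher. In ETO none rose and 3 fell of 7 as deposited (beside 13.9% and 51.3% of all genes), and 4 rose and 2 fell after rescaling (beside 30.9% and 31.2%). Dpp4, whose product removes pairs of residues from the N terminus of peptides, fell by 2.26 in ETO and by 3.19 in MYCi and did so on both scales. In siMat2a 1 rose, Ace by 1.55, and 1 fell of 7 as deposited (beside 13.1% and 36.8% of all genes), against 6 and 1 after rescaling (beside 23% and 19.8%).

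Slc40a1 encodes ferroportin, the iron exporter of cells (ENSMUSG00000025993, chromosome 1, 45908068 to 45926523, minus strand). In ETO it was at 1.97 and 2.06 FPKM against 0.142 and 0.180 in H2O, about 1181 and 1382.5 fragments against 62 and 57, a ratio of means of 12.5. EedKO gave 1.66 in each library against 0.660 and 0.707 in Het (2.43-fold) and MYCi 0.544 and 0.587 against 0.198 and 0.188 in DMSO (2.93-fold). The groups did not overlap in these 3 tables. In siMat2a the 0.179 and 0.0973 overlapped the 0.0664 and 0.116 of siCtr, and in the sorted cells the gene stayed at 0.0580 FPKM or less in all 4 libraries, under the filter. Of 15 other iron genes, 13 were tested in ETO, where 2 rose and 7 fell as deposited, close to the 13.9% and 51.3% of all genes, and 4 rose and 6 fell after rescaling, beside 30.9% and 31.2%. Steap3 fell there by 2.84 and the transferrin receptor gene Tfrc by 1.88. Heph, which encodes an oxidase that works with ferroportin, was at 0.0486 and 0.115 FPKM in H2O and at 0.502 and 0.473 in ETO, and at 0.0141 and 0.0511 in DMSO and 0.225 and 0.220 in MYCi. It passed the filter only through the treated group in both tables, so these values are a description. In MYCi 1 rose and 8 fell of 12 as deposited (beside 7.89% and 57.8%), and 2 rose and 8 fell after rescaling (beside 25.4% and 28.4%), Steap3 down by 2.86 and Tfrc by 1.49. The falls of Steap3 and Tfrc were called on both scales. In EedKO 3 rose and 2 fell of 13 as deposited, near the 24.2% and 12.1% of all genes. After rescaling 3 rose and 4 fell, beside 25.3% and 22.5%. Of the calls as deposited, 1 was of a gene that passed the filter only through the group where it was high. Steap3 rose in EedKO, by 1.13.

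Itm2a encodes a type II membrane protein (ENSMUSG00000031239, chromosome X, 107397099 to 107403376, minus strand). Its FPKM was 1.83 and 2.0 in high ΔΨm and 7.13 and 5.96 in low ΔΨm cells, 3.42-fold apart. In EedKO it was 6.29 and 7.47 against 4.65 and 4.09 in Het, a rise of 0.64 ± 0.14 (log2, SE; adjusted p = 0.0224, limma) that was not called without Het replicate 2 (0.55, adjusted p = 0.123) or without EedKO replicate 2 (0.52, adjusted p = 0.0539). siMat2a gave the highest level of any group, 16.0 and 8.43 against 7.04 and 6.84 in siCtr, and the difference was not called as deposited (0.73 ± 0.41, adjusted p = 0.114). After rescaling it was 1.48 ± 0.14 (adjusted p = 0.00303). In ETO the direction depended on the scale: 3.65 and 3.76 against 4.60 and 7.30 in H2O was a fall of 0.63 ± 0.28 as deposited (adjusted p = 0.0410) and a difference of 0.15 ± 0.11 after rescaling (adjusted p = 0.312). The fall was not called either with no filter on low values (adjusted p = 0.144) or with no intensity trend (adjusted p = 0.0860). MYCi, at 3.73 and 4.41 against 5.10 and 4.89, went from −0.29 ± 0.15 (adjusted p = 0.120) to 0.46 ± 0.05 (adjusted p = 0.00302).

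Itm2a lies on chromosome X, and sex-linked genes also differed between the sorted groups. The paper lists the Eed lines of both genotypes, and E14 among its other ESC lines, as male. The Y-linked genes Ddx3y, Eif2s3y and Uty were higher in low ΔΨm cells, Ddx3y from 2.57 and 2.84 to 9.26 and 8.18 FPKM (log2 1.65), whereas Xist, the transcript that silences an X chromosome, was 0.109 and 0.108 against 0.141 and 0.144. All 8 genes of the 2-cell embryo that were examined were higher in low ΔΨm cells as well, beside 14% of all genes higher and 6.45% lower. Their sum rose from between 0.766 and 1.01 to between 109 and 123 FPKM. Of these 8 genes, 4 passed the filter only through low ΔΨm cells, so their rise is a description. All 8 also rose in siMat2a, where the sum went from between 21.6 and 23.0 to between 170.1 and 293.1 FPKM, and in EedKO, where it went from between 82.9 and 84.3 to between 220.1 and 233.9. The shares of all genes higher there were 13.1% and 24.2%, and 1 of the 8 passed the filter only through siMat2a. The 2-cell genes fell in ETO (5 of 5 tested, 4 after rescaling, beside 51.3% and 31.2% of all genes). They also fell in MYCi (6 of 6, 3 after rescaling, beside 57.8% and 28.4%). Of these falls, 2 in ETO and 1 in MYCi were of genes that passed the filter only through the control group. In EedKO the Y-linked Uty was 1.05 lower (log2) and Xist 0.83 higher than in Het. The part of these differences in the levels of the 8 genes was not tested. The paralogs of Itm2a, Itm2b and Itm2c, were higher in low ΔΨm cells by 0.84 and 0.68 (log2) and lower in ETO by 0.71 and 0.84, a fall that was not called on rescaling.

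Stox1 encodes a winged-helix DNA-binding protein, studied in human placenta for its link to pre-eclampsia (ENSMUSG00000036923, chromosome 10, 62659043 to 62726128, minus strand). It went from 0.0245 and 0.0427 FPKM in high ΔΨm to 0.833 and 0.589 in low ΔΨm cells, the widest relative gap among the 5 genes chosen there. In siMat2a it was 1.34 and 0.739 against 0.202 and 0.261 in siCtr, about 313.5 and 239 fragments against 33 and 41.5, a rise of 1.73 ± 0.33 (log2, SE; adjusted p = 2.87e-06, limma). EedKO gave 1.52 and 1.47 against 0.331 and 0.496 in Het, a rise of 1.65 ± 0.21 (adjusted p = 0.00600). ETO (0.273 and 0.200 against 0.138 and 0.147) was called after rescaling only, at 0.97 ± 0.21 (adjusted p = 0.0144), and MYCi (0.117 and 0.145 against 0.135 and 0.10) on neither scale. Its paralog Stox2 rose in siMat2a, ETO and MYCi by 1.25, 1.08 and 1.03, was 2.13 higher in low ΔΨm cells, through which alone it passed the filter there, and was not called in EedKO.

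Vgll1 encodes a cofactor of TEAD transcription factors (ENSMUSG00000031131, chromosome X, 57088106 to 57106540, plus strand). EedKO libraries had 2.81 and 2.97 FPKM, about 447.5 and 656.5 fragments, and Het libraries 0.541 and 0.534, about 79 and 78 fragments, a ratio of means of 5.37. Elsewhere the highest value was 0.121 FPKM, in siMat2a, whose 2 libraries (0.121 and 0.0996, 19 and 21.5 fragments) lay above the 0.0368 and 0 of siCtr. No other table had a library above 0.0776 FPKM. Of 11 further TEAD pathway genes, 5 rose and 3 fell of 10 tested in EedKO as deposited, beside 24.2% and 12.1% of all genes. After rescaling 5 rose and 5 fell, beside 25.3% and 22.5%. Tead3 rose by 1.22 and Tead4, a trophectoderm regulator, by 1.18, while Ccn2, a classical YAP target, fell by 1.08. Ccn1 and Ccn2 rose in siMat2a instead, by 2.40 and 1.87, and Tead2 fell in siMat2a, ETO and MYCi, by 1.71, 1.68 and 1.12.

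**Figure D3:**
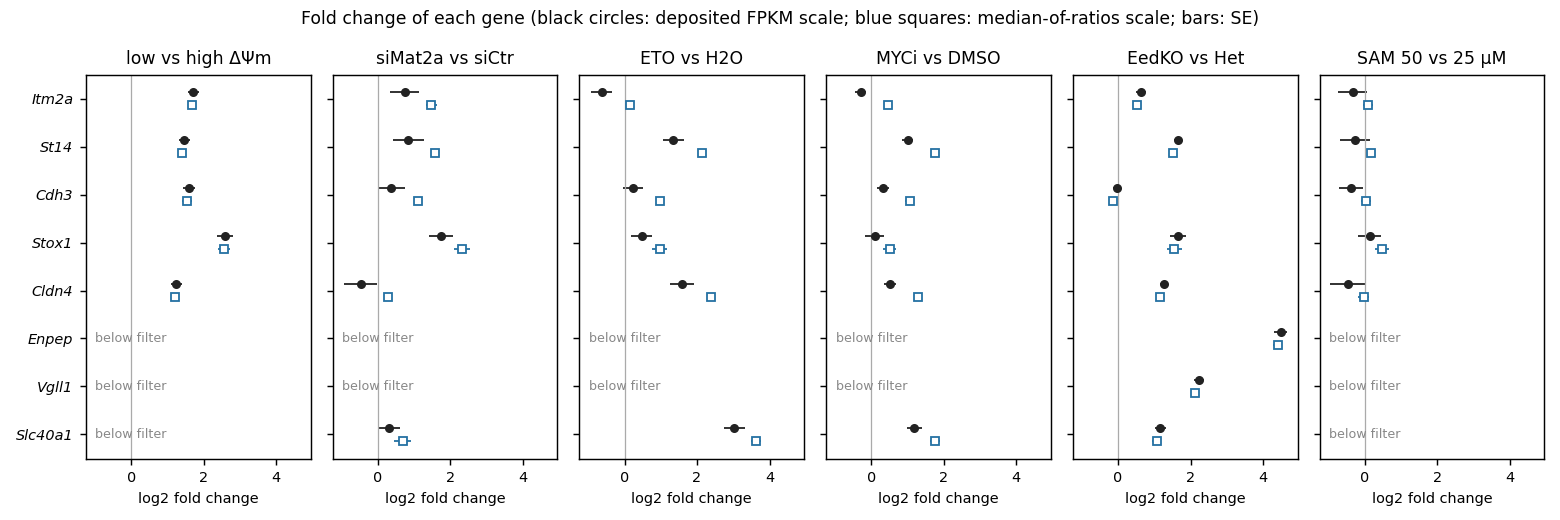
Log2 fold change of the 8 genes in 6 comparisons, on the log2(FPKM + 0.1) scale, as deposited (black circles) and after median-of-ratios scaling (blue squares); bars are SE from 2 libraries per group. In siMat2a, ETO and MYCi the squares lie to the right of the circles by about the shift of the median gene, and Cldn4 in siMat2a and Itm2a in ETO and MYCi cross 0.

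Counting the 5 tested genes, 4 rose in EedKO and none fell, where 24.2% of all 27015 tested genes rose and 12.1% fell. In ETO 2 rose (St14 and Cldn4) and 1 fell (Itm2a), beside 13.9% and 51.3% of 25421 genes. Both ETO rises and the fall lost the call when either ETO library was left out (0 of 5 called, with adjusted p for St14 of 0.157 and 0.155). In MYCi 2 rose (St14 and Cldn4), beside 7.89% of 24335 genes higher and 57.8% lower, and without either DMSO library only St14 was called (Cldn4 adjusted p of 0.201 and 0.383). In siMat2a 1 rose (Stox1), beside 13.1% of 24938 genes higher and 36.8% lower. After rescaling 5 rose in siMat2a, 4 in ETO, 4 in MYCi and 4 in EedKO, and none fell, beside 23%, 30.9%, 25.4% and 25.3% of all genes higher and 19.8%, 31.2%, 28.4% and 22.5% lower. Without siMat2a replicate 1 or replicate 2, 4 and 5 of the 5 genes were called, Cldn4 as lower each time and the other called genes as higher. With no filter on low values the calls of Stox1 in siMat2a and Cldn4 in MYCi were lost (adjusted p of 0.0665 and 0.0693). In the sorted cells all 5 of the genes chosen there stood higher in low ΔΨm cells, beside 14% of 21086 genes called higher and 6.45% lower, and nothing follows from that count.

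The 2 SAM doses gave no call among the 5 genes with limma, beside 0.389% of 23911 genes called higher and 0.493% lower. Before adjustment 0 of the 5 had a p under 0.05, beside 365 genes that were higher and 916 that were lower. After rescaling no gene of the table was called; before adjustment 960 passed as higher and 489 as lower. St14 was at 5.17 and 3.78 FPKM with 25 µM and 4.55 and 2.92 with 50 µM, and Cldn4 at 27.9 and 17.7 against 21.6 and 11.9. In each of the 5 genes the libraries of the 2 doses overlapped. In this table the second library of each dose was the lower one for all 5 genes. Low ΔΨm cells without SAM, in another table, had 9.95 and 9.5 FPKM of St14 and 28.8 and 27.1 of Cldn4, and this difference was not tested because the tables were normalized separately.

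Whether a gene responded differently to 2 treatments was tested as the difference of 2 fold changes, for 5 genes over 6 pairs among siMat2a, ETO, MYCi and EedKO. Of 30 differences, 9 passed as deposited and 17 after rescaling, and 4 passed on both scales with the same sign. Cldn4 rose more in ETO than in siMat2a, by 2.05 ± 0.45 (log2, SE; adjusted p = 0.0122, limma), where 6.36% of 23404 genes differed. It also rose more in EedKO than in siMat2a, by 1.74 ± 0.41 (adjusted p = 0.00317), where 41.6% of 23441 genes differed, and by 0.91 ± 0.09 after rescaling (adjusted p = 0.000349). Stox1 responded less to MYCi than to siMat2a, by −1.65 ± 0.41 (adjusted p = 0.0337, beside 5.8% of 23022 genes), and more to EedKO than to MYCi, by 1.57 ± 0.30 (adjusted p = 0.00240, beside 61.3% of 23094 genes). In the 2 other pairs, 1.65% of genes differed between MYCi and ETO and 56.9% between EedKO and ETO. After rescaling the 6 shares were 29.9%, 41.9%, 25.8%, 48.3%, 18.7% and 53.5% in the order of these pairs. The Stox1 difference between MYCi and siMat2a was lost without DMSO replicate 1, MYCi replicate 1 or siCtr replicate 1 (adjusted p of 0.0647, 0.0762 and 0.0503) and with no filter on low values (0.0857).

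Trophoblast regulators moved in EedKO and less evenly elsewhere. Of 10 tested in EedKO 7 rose and 1 fell (beside 24.2% and 12.1% of all genes), and 8 and 2 after rescaling (beside 25.3% and 22.5%). Of the calls as deposited, 1 was of a gene that passed the filter only through the group where it was high. Hand1 went from 0.914 and 0.909 to 9.86 and 12.2 FPKM (log2 3.45, adjusted p = 0.000956, limma), and Cdx2 rose by 3.29 and Eomes by 2.60. Their summed level was 41.4 to 43.6 FPKM in Het and 78.0 to 95.6 in EedKO. In ETO 5 of 8 rose and 2 fell (beside 13.9% and 51.3% of all genes), and 6 and 1 after rescaling (beside 30.9% and 31.2%). Gata3 was up there by 1.93, Eomes up by 1.03 and Cdx2 down by 3.93, from 3.51 and 3.84 to 0.168 and 0.129 FPKM. Of the calls in this list, 1 in ETO and 2 in siMat2a were of genes that passed the filter only through the group where they were high. Cdx2 also fell in siMat2a and MYCi, by 1.92 and 2.11, and did so on both scales, while Ascl2 rose by 1.98 in siMat2a and Gata2 by 1.74 in MYCi. In low ΔΨm cells only Tfap2c passed, 0.62 higher. Markers of other cell types rose in EedKO too. All 8 primitive endoderm genes did, beside 24.2% of all genes, Gata6 by 3.64 and Gata4 by 3.30. Their sum went from between 17.6 and 19.2 to between 59.6 and 67.7 FPKM. Of these 8, 2 passed the filter only through EedKO, so their rise is a description. In siMat2a 4 of the 8 rose and 1 fell (median 0.89, all genes −0.63), beside 13.1% and 36.8% of all genes. In ETO 4 of 7 rose and 1 fell (median 0.99, all genes −0.66), beside 13.9% and 51.3%. After rescaling 5 rose and 1 fell in ETO, beside 30.9% and 31.2%. Of the primitive endoderm calls as deposited, 2 in siMat2a and 1 in ETO were of genes that passed the filter only through the group where they were high. The sum of the primitive endoderm genes went down, from between 26.1 and 29.1 to between 12.6 and 19.2 FPKM in siMat2a and from between 19.3 and 24.5 to between 11.6 and 12.2 in ETO. Of the fibroblast genes 4 of 5 tested rose in siMat2a and 1 fell, beside 13.1% and 36.8% of all genes. Of these calls 3 were of genes that passed the filter through 1 group only, so those are a description. Of the 9 differentiated trophoblast genes 4 were tested in EedKO and all 4 rose, beside 24.2% of all genes. However, 3 of them passed the filter only through EedKO, so their rise is a description. Syna, the syncytin-A gene, went from 0.387 and 0.432 to 5.53 and 5.46 FPKM. Prl3d1 was at 0 in Het and at 0.743 and 0.580 in EedKO, while Tpbpa, Prl3b1 and Ctsq were at 0 in all 4 libraries. In bulk RNA, more or fewer cells of a type and more or less RNA per cell cannot be told apart, and the part of such cells in the levels of the 8 genes was not tested.

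**Figure D4:**
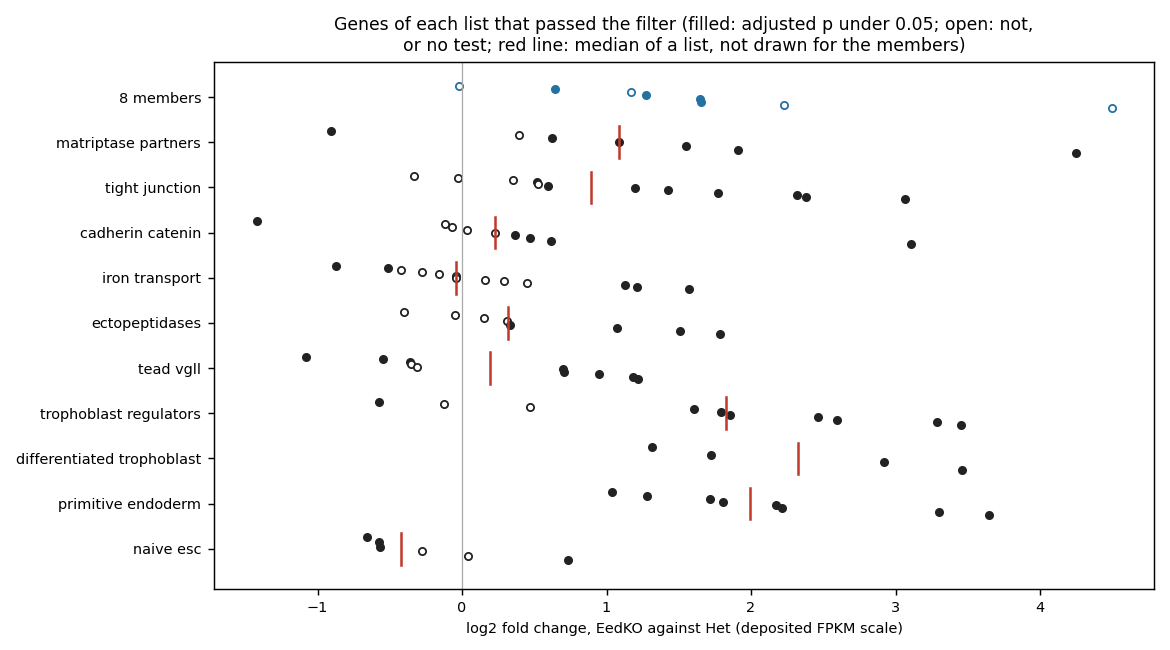
Log2 fold change between EedKO and Het (horizontal axis, deposited scale) of the 8 genes and of the genes of 10 related lists that passed the filter. Filled points had an adjusted p under 0.05 with limma, open points did not or carry no test (Enpep, Vgll1 and Slc40a1), and red lines are list medians, 1.82 for trophoblast regulators, 1.99 for primitive endoderm and −0.42 for pluripotency genes.

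Likeness of pattern was described by Pearson's r over the 24 libraries, on rescaled log2 values centred within each table, among 16595 genes with at least 1 FPKM in at least 4 libraries; libraries of a group and a table share their treatment and normalization, so no p is given. Itm2a was most like Tdpoz4 and Usp17ld (r of 0.964 and 0.962), both members of families active in the 2-cell embryo. St14 was nearest to Cpd and Pgbd5 (0.983 and 0.979), Cldn4 to Parp4 and Ltbr (0.986 and 0.984) and Cdh3 to Stox2 and Epb41l3 (0.975 and 0.970). Stox1 followed Ssh2 and Gm15753 (0.962 and 0.957), Enpep Zfp36l3 and Rab11fip5 (0.979 and 0.972), Vgll1 Tex13b and Hoxc13 (0.933 and 0.931) and Slc40a1 Pof1b and Cpeb1 (0.988 and 0.985). Among the 8 genes themselves the closest pairs were Itm2a with Stox1 (0.922), St14 with Cldn4 (0.915) and Cldn4 with Slc40a1 (0.909). The 24 libraries include the 4 sorted ones, from which Itm2a, St14, Cdh3, Stox1 and Cldn4 were chosen. Part of the likeness among these 5 genes therefore follows from that choice. The same holds for their likeness to other genes that differ between the sorted groups, such as that of Itm2a to genes of 2-cell families. The least alike were Cdh3 and Enpep (−0.04). Enpep was under 0.1 FPKM in 20 of the 24 libraries and Vgll1 in 19. The r values of these 2 genes therefore rest mostly on the Eed lines.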

How the data were processed

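Expression of the 8 genes was measured by RNA-seq of total, ribosome-depleted RNA in 24 libraries. The authors trimmed reads with Trim Galore, aligned them with TopHat2 2.1.1 to mm10 (GRCm38), counted them with featureCounts without using strand and with shared reads split between features, and deposited FPKM values computed with edgeR in 6 tables. Reads of a gene and of an overlapping or antisense gene therefore cannot be told apart. Gene symbols, positions and strands came from the GENCODE M21 annotation of GRCm38, and promoters from RefSeq.

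Within each table, log2(FPKM + 0.1) was fitted with limma 3.58.1 (R 4.3.3, intensity trend), for genes with at least 0.1 FPKM in at least 2 of the 4 libraries. A gene was called at a Benjamini-Hochberg adjusted p under 0.05, the adjustment covering the whole filtered table, and fold changes are on this log2 scale, which understates changes of low genes. The second scale divided each library by its median of ratios. The fit was tested on simulated data with the same small spread for every gene and no shift between groups. That test therefore does not cover the siMat2a, ETO and MYCi comparisons, where the median gene shifted. The members and lists were chosen with earlier results of these data known. Named genes were the 8 members, the listed genes with the largest changes among those called, and for likeness the 2 nearest genes of each. Alternatives were that scaling, a pseudocount of 1, no filter, no trend, a replicate block and leaving out each library. Depth was estimated from the smallest steps of the FPKM values, so fragment numbers are estimates. A further 2 genes of the lists are not reported here and were left out of the counts.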

Additional observations from a re-analysis of the deposited data

How the results depend on the processing

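The choice of scale moved most results. Of the 5 tested genes, 1 was called in siMat2a as deposited, 5 after median-of-ratios scaling, 0 with no filter on low values, 2 with no intensity trend and 1 to 5 when a library was left out. In ETO 3 were called, 2 with no filter or no trend, 4 after scaling and 0 to 4 when a library was left out. In MYCi 2 were called, 4 after scaling, 1 with no filter and 1 to 3 when a library was left out. Of 30 differences of fold changes 9 were called, 17 after scaling and 6 to 16 when a library was left out, the highest without siMat2a replicate 2. EedKO had 3 or 4 calls under every alternative run. Log2 fold changes that turned under scaling were Cldn4 in siMat2a (0.28), Itm2a in ETO (0.15) and MYCi (0.46), and between the SAM doses Itm2a (0.0858), St14 (0.16) and Cdh3 (0.0237). Leaving out a library turned Stox1 in MYCi (−0.0292 to 0.20), Cdh3 in EedKO (−0.13 to 0.0857) and, between SAM doses, Itm2a (−0.75 to 0.0661), St14 (−0.58 to 0.0408) and Stox1 (−0.12 to 0.39). The cause of these changes was not tested. Genes called lower among all genes numbered 9186 in siMat2a as deposited, 4930 after scaling and 342 with no filter.

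The groups share replicate numbers 1 and 2, but nothing in the labels says that a number marks a shared culture, and same-numbered libraries deviated together with correlations of −0.10 to 0.30. With the replicate number as a block 1 of the 5 genes was called in MYCi (Cldn4 lost, adjusted p = 0.188, limma), 2 in ETO (Itm2a lost, adjusted p = 0.158) and 2 between the SAM doses (Itm2a and Cldn4 lower at 50 µM, adjusted p of 0.0389 and 0.00619). The calls in siMat2a and EedKO numbered 1 and 4 with the block as without it, and over all genes the calls between the SAM doses went from 211 to 12828.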
